A study of Mus musculus with 14 samples.

Results

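The 73 genes described here encode the heat shock and DnaJ chaperones, and they were followed over 5 timepoints of SOX9 induction in epidermal stem cells (EpdSCs) of mouse back skin. They were chosen by symbol from the 54332 gene rows of the time-course table: every numbered Hspa, Hspb, Hspd, Hspe, Hsph, Dnaja, Dnajb and Dnajc gene, the Hsp90 genes Hsp90aa1, Hsp90ab1 and Hsp90b1, and the heat shock factor gene Hsf1. The symbols gave 13 Hspa (Hsp70) genes, 8 small Hspb genes, 3 Hsp90 genes, Hspd1, Hspe1, Hsph1, 4 Dnaja, 13 Dnajb and 28 Dnajc genes and Hsf1. Values are TPM, each gene's share of transcripts in a library, in which reads are divided by transcript length, so that levels can be compared between genes. Of the 73 genes, 60 reached a mean of 1 TPM over the 10 libraries and entered the tests, and 13 did not.

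The mice were of the CD1 strain and carried K14rtTA, which drives the doxycycline (DOX)-dependent activator from the Krt14 promoter of basal keratinocytes, and TRE-myc-Sox9, a MYC-tagged Sox9 transgene. Every library, D0 included, came from mice or skin labelled with both transgenes, and no library of another genotype entered the comparisons. DOX was given from P21, so the D0, W1, W2 and W6 mice were P21, P28, P35 and P63, and age rose together with time on DOX. The W12 cells came from neonatal back skin grafted onto immunocompromised Nude females and induced after healing, so the time on DOX and the graft cannot be told apart. Each timepoint had 2 libraries, labelled as biological replicates and male, with the number of animals in each not given in the sources used here. Skin was digested with trypsin at body temperature and the cells were sorted as negative for CD31, CD45, CD117, CD140a and CD34 and high for CD49f and Ly6A, at every timepoint.

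Hsp70 proteins bind exposed hydrophobic stretches of unfolded proteins and release them in a cycle driven by ATP. DnaJ proteins, also called Hsp40s, deliver clients and stimulate the ATPase of Hsp70, and Hsp110 proteins act as nucleotide exchange factors. Small heat shock proteins hold unfolded clients without ATP, Hsp90 acts late in the maturation of kinases and receptors, and the Hsp60 and Hsp10 chaperonin folds proteins in the mitochondrial matrix. Under heat or other proteotoxic stress HSF1 binds heat shock elements and raises the cytosolic set, whereas unfolded protein in the endoplasmic reticulum (ER) raises BiP (Hspa5) and its partners through ER stress elements. In epidermis HSPB1 is abundant in keratinocytes and is known as a keratinocyte stress and differentiation marker.

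Promoter sequences were read for these elements because these elements are the known routes by which the members are induced. RefSeq promoters of build GRCm38.p6, each 300 bases from 250 before to 50 after a start site, were found for 58 of the 73 genes. A pair of facing heat shock units, GAANNTTC, which reads the same on both strands, was present in 14 of the 58 genes, or 24.1%, against 9.04% of the 27025 genes with a promoter. The ER stress element, CCAAT and CCACG separated by 9 bases on either strand, was present in Dnajc3, Hsp90b1 and Hspa5, or 5.17%, against 0.137% of all genes. Such matches describe letters in a window and do not show that a factor bound there. The windows below come from members whose levels are given further on, each 5′ to 3′ on the gene's strand. Capitals mark the fixed letters of the matched heat shock units or of the ER stress element.
Hspb1, chr5:135887792-135887839, + strand: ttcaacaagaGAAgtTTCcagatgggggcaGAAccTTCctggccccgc
Hspa1a, chr17:34972243-34972270, - strand: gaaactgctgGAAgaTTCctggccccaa
Dnaja1, chr4:40722334-40722361, + strand: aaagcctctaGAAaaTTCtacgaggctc
Hspd1, chr1:55088049-55088086, - strand: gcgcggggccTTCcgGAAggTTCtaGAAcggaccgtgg
Hspa5, chr2:34772015-34772053, + strand: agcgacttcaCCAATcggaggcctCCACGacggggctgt
Dnajc3, chr14:118937817-118937855, + strand: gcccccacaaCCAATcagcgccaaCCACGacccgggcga
Hspb1 held 2 unit pairs, starting 117 and 97 bases before its start site. The Hspa1b window at chr17:34959325-34959352 was letter for letter that of Hspa1a, and the 2 genes encode near-identical inducible Hsp70 proteins. Hspd1 and Hspe1, the mitochondrial Hsp60 and Hsp10 genes, face away from each other and share the printed window, read on opposite strands, in which 4 adjoining units alternate in direction. Hsp90b1 held 2 ER stress elements, 1 on each strand, starting 212 and 107 bases before its start site. The window of Hsph1 held 3 adjoining units just after its start site. The windows of Dnajb1, Dnajb4 and Dnajb9 held neither element as spelled here.

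Several properties of the libraries bear on all results. The MYC-SOX9 transgene stood at 89.6 and 45.6 TPM at D0 and at 606 to 3414 TPM in the 8 DOX libraries. Basal epidermal markers summed to 57986 and 60457 TPM at D0 and 35409 to 46996 TPM later. Of the 8 basal markers, 7 fell at W6, and 1 rose and 5 fell at W12. Krt15 went from 11241 and 11928 TPM at D0 to 322 and 242 TPM at W12. Suprabasal markers summed to 1265 to 2498 TPM. Of these 6, 2 rose at W1, 2 at W2 and 3 at W6, and 2 rose and 1 fell at W12. Of all genes, 5.79% rose and 4.10% fell at W1, 9.06% and 6.64% at W2, 18.3% and 14.1% at W6, and 17.9% and 25.1% at W12, shares that stand beside all marker counts here. The part of these shifts in the chaperone results was not tested. Summed immune markers were 4.06 to 28.2 TPM up to W6 and 104 and 128 TPM at W12, nearly all of it Cd74, with Ptprc at no more than 0.327 TPM. Summed endothelial markers were at most 1.57 TPM up to W6 and 34.1 and 78.5 TPM at W12, and the fibroblast sum reached 52.2 TPM in W6 replicate 2, nearly all of it Dcn. D0 replicate 2, labelled male, had Xist at 4.61 TPM and Ddx3y at 0.0278 TPM, and both W12 libraries had Xist (5.51 and 3.502 TPM) together with Ddx3y (10.97 and 12.9 TPM). The immediate-early genes, which cells switch on within minutes of disturbance, summed to 38788 and 62775 TPM at D0 and to 7811 to 16203 TPM later. Of 21 immediate-early genes tested, 18, 15, 18 and 19 fell against D0 in time order, and 1, Ier3, rose at W12. The same D0 libraries are the baseline of the chaperone comparisons, and what handling before lysis contributed to the D0 levels was not tested. In sorted bulk RNA, fewer cells of a type and less RNA per cell cannot be told apart.

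Together the 73 genes took 1.05% and 1.65% of all TPM in the D0 libraries and 0.73 to 0.891% in the 8 later ones. Hspb1 accounted for most of that difference in size. Without Hspb1 the shares were 0.677% and 0.719% at D0 and 0.528 to 0.693% later, so that the highest later library overlapped the D0 range. By mean over the 10 libraries the order of the 10 highest genes was Hspb1, Hsp90ab1, Hspa8, Hspa5, Hspa1b, Hsp90aa1, Dnajb1, Hspa1a, Hsp90b1 and Dnaja1. The small Hspb genes moved from 0.389% and 0.951% of TPM at D0 to 0.104 to 0.307% later, and the Dnajb genes from 0.0934% and 0.211% to 0.0322 to 0.0547%. Dnajb1 carried the latter, since the other Dnajb genes took 0.0302% and 0.0324% at D0 and 0.0221 to 0.0284% later. The Hsp70 genes held 0.195 to 0.315% throughout, with W12 replicate 2 the highest library.

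**Figure D1:**
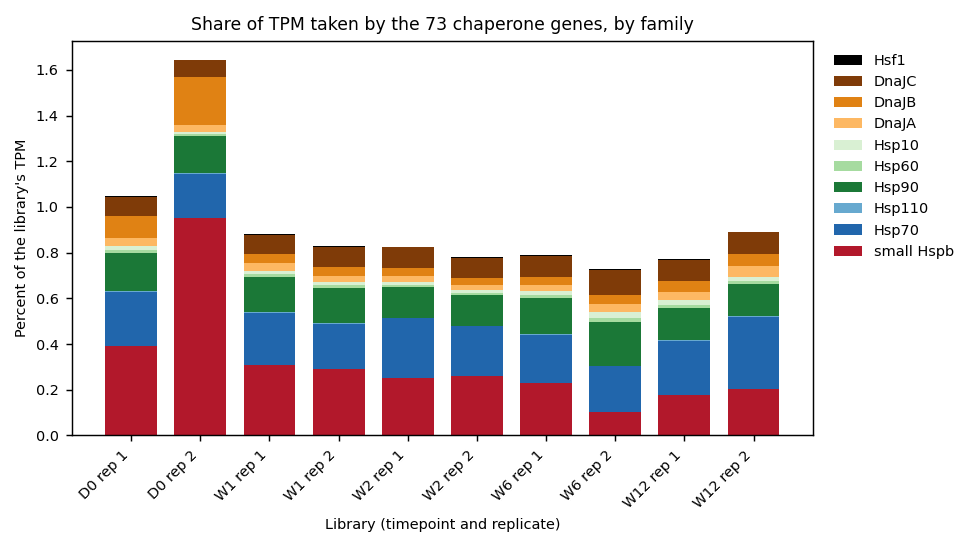
Percent of each library's TPM (vertical axis, from 0) taken by the 73 chaperone genes, stacked by family, in the 10 libraries (horizontal axis, timepoint and replicate). D0 replicate 2 stands at 1.65%, of which the small Hspb genes hold 0.951%, and all 8 later libraries lie between 0.73 and 0.891%.

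Against D0, the DnaJ cofactors Dnajb1 and Dnajb4, the small heat shock gene Hspb8 and the Hsp70 relative Hspa12a fell at all 4 later timepoints, and Hspa4l, an Hsp110-related member of the Hsp70 family, rose at all 4. All 4 comparisons use the same 2 D0 libraries, so they are not independent of each other. At W1, 9 of 60 members passed an adjusted p of 0.05 in limma with Benjamini-Hochberg adjustment over all genes, 3 higher (Hspa2, Hspa4l and Dnajc25) and 6 lower (Dnajb1, Dnajb4, Hspa12a, Dnajb9, Hspa5 and Hspb8). That is 15.0% of members, beside 9.89% of all 13110 genes tested, of which 5.79% were higher and 4.10% lower. The median log2 change was 0.05 over members and 0.09 over all genes. Dnajb4, Hspa2 and Hspa4l passed under every alternative tried. Without W1 replicate 2, 4 members were called.

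At W2, 15 of 60 members passed (25.0%, beside 15.7% of all genes), 6 higher and 9 lower, where all genes gave 9.06% higher and 6.64% lower. Median-ratio scaling of the libraries gave 5 higher and 13 lower, and quantile normalization 4 higher and 10 lower. Among the members that passed, the 5 largest falls were those of Dnajb1, Hsph1, Dnajb4, Hspb8 and Hspa12a. The 5 largest rises among them were those of Hspa4l, Hspa2, Hspa1a, Hspb6 and Hspb2. The median log2 change was -0.11 over members and 0.06 over all genes. Without W2 replicate 1, 8 members were called, and without W2 replicate 2, 7. Without D0 replicate 2, 8 of the 15 calls remained, among them Dnajb1, Dnajb4, Hspa2, Hspa4l, Hspa5, Hspb8 and Hsph1.

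At W6, 23 of 60 members passed (38.3%, beside 32.4% of all genes), 10 higher and 13 lower, where all genes gave 18.3% higher and 14.1% lower. The 5 largest falls were in Dnajb1, Hspb8, Dnajb4, Hspb1 and Hspa12a, and the 5 largest rises in Hspa4l, Dnajc15, Dnajc2, Hspb6 and Dnajc9. Without D0 replicate 2, 11 of the 23 calls remained.

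At W12, 27 of 60 members passed (45.0%, beside 43.0% of all genes), 9 higher and 18 lower, where all genes gave 17.9% higher and 25.1% lower. Median-ratio scaling turned this into 18 higher and 14 lower, so the balance of directions at W12 depends on the scaling, whereas the falls of Dnajb1, Dnajb2, Dnajb4, Dnajb5, Hspb8 and Hsph1 and the rises of Hspa4l and Dnajc2 passed under every alternative. Without D0 replicate 2, 15 of the 27 calls remained. Without W12 replicate 1, 11 members were called, and without W12 replicate 2, 15. Over all 4 later timepoints the F test gave 38 of 60 members (63.3%), beside 57.5% of all genes. It gave 21 to 24 without W1 replicate 2 or any 1 of the W2 and W12 libraries.

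Between W2 and W6, 12 of 60 members passed (beside 16.3% of all genes), 6 higher and 6 lower, where all genes gave 7.99% higher and 8.31% lower. Among the members that passed, Hsph1, Hspd1 and Dnajc2 led the rises and Dnajb5, Hspa2, Dnajc28 and Dnaja4 the falls. Without D0 replicate 1, or without D0 replicate 2, 22 were called, and without any 1 of the W1 and W12 libraries or W6 replicate 2, 5 to 7. None of these calls survived leaving out W2 replicate 1 or W2 replicate 2, where limma called 0 members and 19 and 18 had an unadjusted p under 0.05. Between W6 and W12, 7 of 60 members passed (11.7%, beside 20.2% of all genes), 3 higher (Dnajb4, Dnajb9 and Hspa5) and 4 lower (Hspb6, Dnajc30, Hsp90ab1 and Dnajb12), where all genes gave 6.66% higher and 13.5% lower. Without W12 replicate 1, 1 member was called, without W12 replicate 2, 3, and without W6 replicate 2, 11. Quantile normalization gave 4 higher and 3 lower, and median-ratio scaling gave 7 higher and 3 lower and moved the median of all genes from -0.16 to -0.01.

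**Figure D2:**
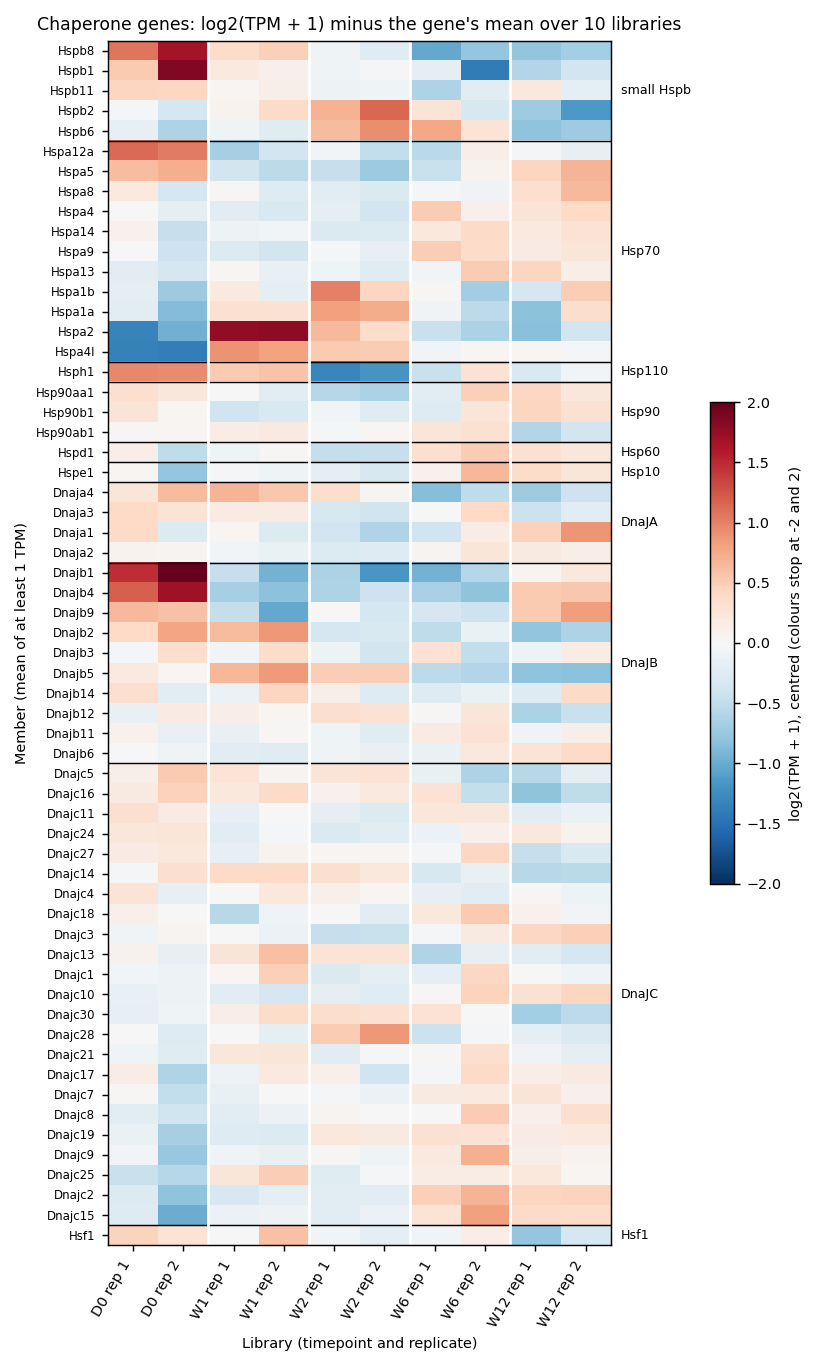
Log2(TPM + 1) of the 60 tested members (rows, grouped by family) minus each gene's mean over the 10 libraries (columns, 2 per timepoint). Red is above and blue below the gene's own mean. The D0 columns are red for Dnajb1, Dnajb4, Hspb1 and Hspb8 and blue for Hspa2 and Hspa4l, and Hsph1 is bluest at W2.

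Among the small heat shock genes, Hspb1 (chr5:135887919-135889563, + strand, of build GRCm38), encoding HSP25, the mouse counterpart of human HSP27, had the highest mean of all members. It stood at 3715 and 9267 TPM at D0, 2952 and 2768 at W1, 2436 and 2525 at W2, 2244 and 976 at W6 and 1719 and 1982 at W12. Both D0 libraries were above all 8 later ones, and D0 replicate 2 was the highest. Its change at W1 did not pass (log2 change -1.04, adjusted p = 0.191, range 0.0344 to 0.622, with 0.0344 without D0 replicate 1), nor did that at W2 (log2 change -1.24, adjusted p = 0.0994, range 0.0183 to 0.395, with 0.0183 without D0 replicate 1). It fell at W6 (log2 change -1.99, SE 0.45, adjusted p = 0.0116, range 0.00236 to 0.101, with 0.0615 without D0 replicate 2 and 0.0637 without W6 replicate 2). It was also lower at W12 (log2 change -1.67, SE 0.45, adjusted p = 0.0173, range 0.00306 to 0.102, with 0.0658 to 0.102 without D0 replicate 2, W12 replicate 1 or W12 replicate 2). The size of these changes depended on which D0 library was used. Without D0 replicate 1 the log2 changes were -1.70, -1.90, -2.65 and -2.33 in time order, and without D0 replicate 2 they were -0.38, -0.58, -1.33 and -1.01. At W6 the change was -2.59 without W6 replicate 1 and -1.39 without W6 replicate 2. Here and below, a range is that of the adjusted p over the alternative settings of the closing section, and libraries and scalings are named where leaving out or using them moved the p across 0.05. A member's p for a pair of timepoints printed without a range or a count of alternatives stayed on its side of 0.05 in all of them. The processed copy Hsp25-ps1, to which Hspb1 reads can be assigned, stood at 148 TPM in W12 replicate 2 and at no more than 6.92 TPM in the other libraries.

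Hspb8 (chr5:116408491-116422864, - strand), which works with the co-chaperone BAG3 in clearing misfolded protein, moved more evenly. It had 140.2 and 210.4 TPM at D0, 85.8 and 92.5 at W1, 62.5 and 55.6 at W2, 31.9 and 38.1 at W6 and 37.7 and 40.96 at W12, with no overlap between D0 and any later timepoint. It fell at W1 (log2 change -0.94, SE 0.20, adjusted p = 0.0201, range 0.00447 to 0.128, with 0.0579 to 0.115 without D0 replicate 2, W1 replicate 1 or W1 replicate 2). The falls at W2 (log2 change -1.53, SE 0.20, adjusted p = 0.00175), W6 (log2 change -2.27, SE 0.20, adjusted p = 0.000155) and W12 (log2 change -2.10, SE 0.20, adjusted p = 0.000115) passed under every alternative. Hspb6, a small heat shock gene of muscle, and Hspb2 went the other way at W2. Hspb6 had 5.45 and 3.70 TPM at D0, 10.2 and 12.8 at W2, 11.3 and 7.75 at W6 and 3.14 and 3.44 at W12, with the W2 libraries above both D0 and both W12 libraries. It rose at W2 (log2 change 1.18, SE 0.24, adjusted p = 0.0143, range 0.00895 to 0.125, with 0.0527 to 0.125 without D0 replicate 2, W2 replicate 1 or W2 replicate 2). From W6 to W12 it fell (log2 change -1.28, SE 0.24, adjusted p = 0.00953, range 0.00746 to 0.0746, with 0.0746 without W12 replicate 1). Hspb2 stood at 1.66 and 1.13 TPM at D0 and 3.42 and 5.02 at W2, and all its values were low. It rose at W2 (log2 change 1.12, SE 0.30, adjusted p = 0.0394, range 0.0245 to 0.258, with 0.0517 to 0.258 without any one library other than W6 replicate 1 and W6 replicate 2, and 0.0951 with quantile normalization). Acta2, the 1 of 4 smooth muscle markers high enough to be tested, had 2.83 and 1.13 TPM at D0 and 10.7 and 9.73 TPM at W2 (log2 change 1.97, limma adjusted p = 0.00542). The smooth muscle myosin Myh11 was at no more than 0.0338 TPM, and 6 skeletal muscle markers summed to no more than 0.629 TPM in any library. The part of smooth muscle RNA in the Hspb6 and Hspb2 values was not tested. Hspb11, whose protein is part of the ciliary transport complex, fell at W6 from 29.8 and 29.6 to 13.9 and 18.8 TPM (log2 change -0.84, SE 0.19, adjusted p = 0.0115, range 0.00728 to 0.107, with 0.107 in the fit of the 4 libraries compared).

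Of the cytosolic DnaJ genes, Dnajb1 (chr8:83608193-83612653, + strand), the main stress-inducible Hsp40, changed most. Its TPM were 632 and 1790 at D0, 166 and 117 at W1, 147 and 101 at W2, 118 and 153 at W6 and 237 and 263 at W12. The D0 libraries lay far apart from each other and both above every later library. It fell at W1 (log2 change -2.92, SE 0.43, adjusted p = 0.00402, range 0.000817 to 0.0784, with 0.0784 in the fit of the 4 libraries compared), W2 (log2 change -3.12, SE 0.43, adjusted p = 0.00215, range 0.000483 to 0.0507, with 0.0507 in the fit of the 4 libraries compared), W6 (log2 change -2.98, SE 0.43, adjusted p = 0.00153) and W12 (log2 change -2.09, SE 0.43, adjusted p = 0.00515). Without D0 replicate 1 the log2 changes were -3.67, -3.87, -3.73 and -2.84 in time order, and without D0 replicate 2 they were -2.17, -2.37, -2.23 and -1.34. Its difference from W6 to W12 did not pass with all libraries (log2 change 0.89, adjusted p = 0.179, range 0.0312 to 0.422, with 0.0312 without D0 replicate 1 and 0.0314 without D0 replicate 2).

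Dnajb4 (chr3:152178511-152210302, - strand), a close relative of Dnajb1, had 48.1 and 67.8 TPM at D0, 12.5 and 11.01 at W1, 12.96 and 14.97 at W2, 12.6 and 11.2 at W6 and 29.8 and 30.01 at W12. The libraries fell into 3 levels without overlap, D0 above W12 and W12 above W1, W2 and W6. It fell at W1 (log2 change -2.19, SE 0.19, adjusted p = 0.000409), at W2 (log2 change -1.96, SE 0.19, adjusted p = 0.000495) and at W6 (log2 change -2.17, SE 0.19, adjusted p = 0.000156), and less far at W12 (log2 change -0.91, SE 0.19, adjusted p = 0.00575). Dnajb4 was also the single member whose rise from W6 to W12 passed under every alternative (log2 change 1.26, SE 0.19, adjusted p = 0.00373).

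Dnajb2, Dnajb5 and Dnaja4 did not pass at W1. Dnajb2, known from neurons as a guide of misfolded protein to the proteasome, had 50.8 and 67.03 TPM at D0 and 59.7 and 70.8 at W1, then 30.2 and 30.7 at W2, 26.7 and 34.9 at W6 and 21.7 and 24.8 at W12. Both W2 libraries and all later ones were below D0 and W1. Dnajb2 fell at W2 (log2 change -0.92, SE 0.19, adjusted p = 0.015, a call kept in 14 of 19 alternatives). At W6 it also fell (log2 change -0.91, SE 0.19, adjusted p = 0.00858, kept in 19 of 20, with 0.0918 in the fit of the 4 libraries compared). Its fall at W12 (log2 change -1.30, SE 0.19, adjusted p = 0.00115) passed under every alternative. Dnajb5 stood at 4.45 and 3.94 TPM at D0, 6.61 and 7.67 at W1, 5.71 and 5.71 at W2, 2.34 and 2.19 at W6 and 1.74 and 1.71 at W12. It fell at W12 against D0 (log2 change -0.93, SE 0.18, adjusted p = 0.00431). Between W2 and W6 it also fell (log2 change -1.04, SE 0.18, adjusted p = 0.0106, range 0.00634 to 0.0925, with 0.0925 without W2 replicate 1 and 0.0834 without W2 replicate 2).

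Dnaja4 had 23.1 and 30.5 TPM at D0, 31.8 and 28.6 at W1, 25.00 and 20.1 at W2, 10.2 and 13.4 at W6 and 11.4 and 14.2 at W12. The W6 and W12 libraries were all below the earlier 6, and it fell at W6 (log2 change -1.12, SE 0.21, adjusted p = 0.00557, range 0.00425 to 0.0742, with 0.0742 in the fit of the 4 libraries compared) and W12 (log2 change -1.005, SE 0.21, adjusted p = 0.006, range 0.00522 to 0.0525, with 0.0525 without W12 replicate 1). Dnaja1, the main constitutive farnesylated Hsp40, passed in no comparison of 2 timepoints, and in the F test over all of them its adjusted p was 0.0448. It had 216 and 135 TPM at D0 and 224 and 301 at W12, both above D0 (log2 change 0.60, adjusted p = 0.104, range 0.0257 to 0.501, with 0.0257 without D0 replicate 1). Dnaja2, another Hsp70 partner of the cytosol, stood between 69.6 and 100.3 TPM in all libraries. It rose from W2 to W6 (log2 change 0.42, SE 0.12, adjusted p = 0.0498, range 0.0314 to 0.235, with 0.0728 to 0.235 without any one library other than D0 replicate 1, D0 replicate 2 and W6 replicate 1, and 0.0633 with quantile normalization). Dnajb6, a suppressor of protein aggregation, stayed between 75.98 and 119.6 TPM and passed in no comparison. The membrane-bound Dnajb12 was lowest at W12, 10.1 and 11.6 TPM against 14.5 and 18.3 at D0 and 16.5 and 19.4 at W6. It fell from W6 to W12 (log2 change -0.68, SE 0.17, adjusted p = 0.0272, range 0.0176 to 0.167, with 0.0588 to 0.167 without W2 replicate 1, W2 replicate 2, W6 replicate 2, W12 replicate 1 or W12 replicate 2, and 0.0751 with median-ratio scaling and 0.0692 with quantile normalization).

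Of the 11 Hsp70 genes tested, 2 rose and 2 fell at W1, and 3 rose and 2 fell at W2. At W6, 2 rose and 2 fell, and at W12, 2 rose and 1 fell. Their median log2 changes were 0.11, 0.10, 0.39 and 0.43 in time order, beside 0.09, 0.06, 0.08 and -0.08 over all genes. Over all genes, 5.79% rose and 4.10% fell at W1, and 9.06% and 6.64% at W2. At W6 these shares were 18.3% and 14.1%, and at W12 17.9% and 25.1%. Hspa4l (chr3:40744495-40796103, + strand), whose protein is a nucleotide exchange factor related to Hsp110, had the smallest adjusted p of all members at W1, W2 and W12. It stood at 27.9 and 27.1 TPM at D0, 136 and 128 at W1, 104 and 104 at W2, 69.5 and 74.8 at W6 and 74.97 and 70.7 at W12. Every DOX library was above both D0 libraries. It rose most at W1 (log2 change 2.23, SE 0.12, adjusted p = 8.07e-05) and remained higher at W2 (log2 change 1.89, SE 0.12, adjusted p = 8.21e-05), W6 (log2 change 1.36, SE 0.12, adjusted p = 0.000171) and W12 (log2 change 1.37, SE 0.12, adjusted p = 8.42e-05), under every alternative. It fell between W2 and W6 (log2 change -0.53, SE 0.12, adjusted p = 0.0261, range 0.0142 to 0.164, with 0.0513 to 0.164 without W1 replicate 1, W1 replicate 2, W2 replicate 1 or W2 replicate 2).

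Hspa2 (chr12:76404176-76406938, + strand), an Hsp70 best known from male germ cells, had a shorter rise. Its TPM were 9.71 and 12.9 at D0, 91.6 and 93.04 at W1, 41.4 and 33.9 at W2, 18.9 and 16.5 at W6 and 14.2 and 20.04 at W12. The W1 libraries were the highest and W2 the next, without overlap. It rose at W1 (log2 change 2.94, SE 0.21, adjusted p = 0.000177) and W2 (log2 change 1.66, SE 0.21, adjusted p = 0.00147). No W6 or W12 library was below D0, and the difference did not pass at W6 (log2 change 0.62, adjusted p = 0.0514, range 0.037 to 0.215, with 0.0481 without W12 replicate 1 and 0.0487 without W12 replicate 2, and 0.037 with quantile normalization). It did not pass at W12 either (log2 change 0.56, adjusted p = 0.0589, range 0.0142 to 0.321, with 0.0483 without D0 replicate 2 and 0.0441 without W12 replicate 1, and 0.0355 with median-ratio scaling and 0.0142 with quantile normalization). It fell between W2 and W6 (log2 change -1.04, SE 0.21, adjusted p = 0.016, range 0.0097 to 0.133, with 0.0625 to 0.133 without W2 replicate 1, W2 replicate 2 or W6 replicate 2).

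The inducible Hsp70 genes Hspa1a and Hspa1b share so much sequence that reads can be divided between them by the counting. Hspa1a stood at 183 and 116 TPM at D0, 263 and 263 at W1, 376 and 359 at W2, 203 and 148 at W6 and 119.7 and 271 at W12. Hspa1b stood at 399 and 275 TPM at D0, 522 and 402 at W1, 919 and 613 at W2, 466 and 283 at W6 and 363 and 645 at W12. Their summed TPM were 582 and 391 at D0 and 1295 and 972 at W2, the 2 highest libraries. Summed, they rose at W2 (log2 change 1.23, SE 0.34, limma adjusted p = 0.0433). That p is close to the threshold, and the alternatives were not run for the sum. Taken alone, Hspa1a passed at W2 (log2 change 1.33, SE 0.36, adjusted p = 0.0385, range 0.0148 to 0.17, with 0.065 to 0.165 without D0 replicate 2, W1 replicate 1, W1 replicate 2, W2 replicate 1 or W2 replicate 2). Hspa1b did not pass (log2 change 1.18, adjusted p = 0.0565, range 0.0473 to 0.283, with 0.0473 without W6 replicate 1 and 0.0474 without W6 replicate 2). Unlike Dnajb1 and Hspb1, these genes were thus not highest in the D0 libraries.

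Hsph1 (chr5:149614287-149636376, - strand), the Hsp110 exchange factor, had its low point at W2. It stood at 38.5 and 38.3 TPM at D0, 28.2 and 29.3 at W1, 7.24 and 8.02 at W2, 13.9 and 23.98 at W6 and 15.53 and 18.6 at W12. The W2 libraries lay below all others. It fell at W2 (log2 change -2.19, SE 0.23, adjusted p = 0.00069), W6 (log2 change -1.03, SE 0.23, adjusted p = 0.0115, range 0.00172 to 0.104, with 0.0508 without D0 replicate 2) and W12 (log2 change -1.13, SE 0.23, adjusted p = 0.00538). It was higher at W6 than at W2 (log2 change 1.164, SE 0.23, adjusted p = 0.0161, range 0.00442 to 0.118, with 0.118 without W2 replicate 1 and 0.0833 without W2 replicate 2). Hspa4, a further exchange factor of the same group, stood between 43.2 and 80.4 TPM, and its W6 libraries (80.4 and 60.5 TPM) were above those of W2 (49.6 and 43.2 TPM).

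Hspa8, the constitutive cytosolic Hsp70, ran at 802 and 556 TPM at D0 and 885 and 1100 at W12. Among the 6 comparisons it passed at W12 against D0 alone (log2 change 0.56, SE 0.20, adjusted p = 0.0492, range 0.00697 to 0.244, with 0.0617 to 0.244 without any one library other than D0 replicate 1, and 0.134 with quantile normalization). Hspa12a, a distant Hsp70 relative, was low throughout, 4.33 and 4.05 TPM at D0 and 0.549 to 1.68 TPM later. Both D0 libraries were above all later ones, and it fell at W1 (log2 change -1.60, SE 0.28, adjusted p = 0.00957, range 0.00448 to 0.0717, with 0.0717 without W1 replicate 1 and 0.0534 without W1 replicate 2). It also fell at W2 (log2 change -1.36, SE 0.28, adjusted p = 0.0148, range 0.00593 to 0.129, with 0.0519 without D0 replicate 2 and 0.129 without W2 replicate 2), W6 (log2 change -1.29, SE 0.28, adjusted p = 0.0102, range 0.00391 to 0.0788, with 0.0788 in the fit of the 4 libraries compared) and W12 (log2 change -1.18, SE 0.28, adjusted p = 0.0106, range 0.00398 to 0.0544, with 0.0544 without W12 replicate 2). With a pseudocount of 0.1 in place of 1 its log2 change was -2.42 at W1 and -1.95 at W2. Hspa14, whose protein sits on the ribosome, and Hspa13, a microsomal Hsp70, passed in no comparison.

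Of the cytosolic Hsp90 genes, the inducible Hsp90aa1 had 526 and 484 TPM at D0, 413 and 353 at W1, 280.1 and 266 at W2, 353 and 579 at W6 and 550.5 and 483 at W12. The W2 libraries were the lowest, and it fell there (log2 change -0.88, SE 0.22, adjusted p = 0.0287, range 0.00557 to 0.159, with 0.051 to 0.159 without any one library other than W1 replicate 1, W1 replicate 2, W6 replicate 1 and W6 replicate 2). The difference from W2 to W6 did not pass (log2 change 0.72, adjusted p = 0.0552, range 0.011 to 0.214, with 0.011 to 0.0497 without D0 replicate 1, D0 replicate 2 or W6 replicate 1). The constitutive Hsp90ab1 had 912 and 919 TPM at D0, 993 and 1012 at W1, 877 and 917 at W2, 1054 and 1110 at W6 and 593 and 697 at W12. The W12 libraries were below all others. Hsp90ab1 fell at W12 against D0 (log2 change -0.51, SE 0.13, adjusted p = 0.0151, range 0.00346 to 0.11, with 0.101 without W12 replicate 1). It also fell against W6 (log2 change -0.75, SE 0.13, adjusted p = 0.00722, range 0.00455 to 0.0634, with 0.0634 without W12 replicate 1). Hsf1, the heat shock transcription factor itself, stood at 47.9 and 42.5 TPM at D0, 35.1 and 52.9 at W1, 33.6 and 30.8 at W2, 33.6 and 38.3 at W6 and 20.1 and 27.1 at W12. It fell at W12 (log2 change -0.92, SE 0.22, adjusted p = 0.0104, range 0.00806 to 0.0816, with 0.0816 without W12 replicate 1).

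**Figure D3:**
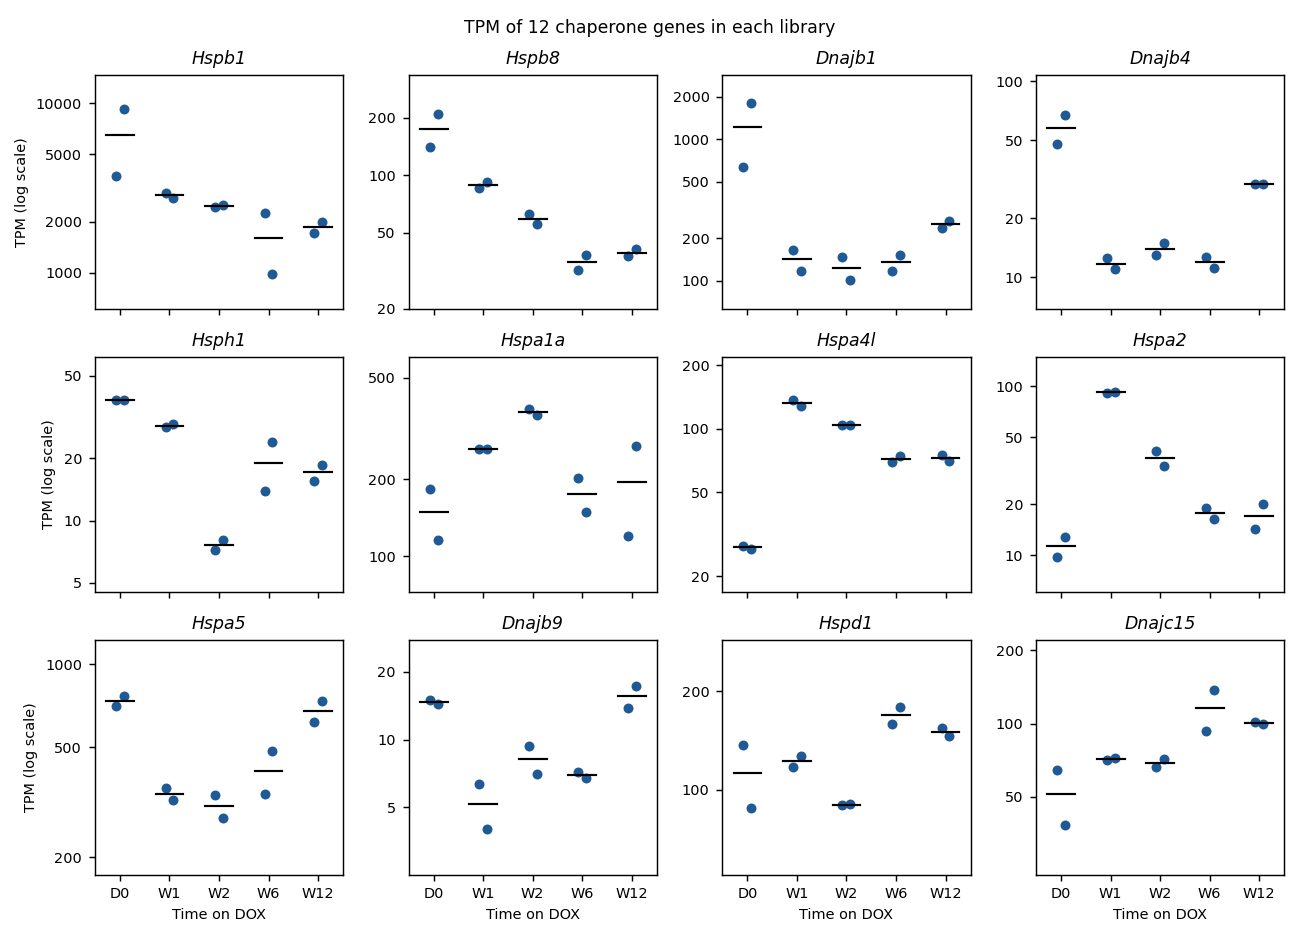
TPM (log axis) of 12 members at D0, W1, W2, W6 and W12. Points are the 2 libraries of a timepoint and lines their mean. Hspb1, Hspb8, Dnajb1 and Dnajb4 are highest at D0, Hspa4l and Hspa2 peak at W1, Hsph1 is lowest at W2, Hspa5 and Dnajb9 are high at D0 and W12, and Hspd1 and Dnajc15 are highest at W6.

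As a list, the 14 members known as targets of heat shock factor (Hspa1a, Hspa1b, Hspa8, Hspa4l, Hsph1, Hsp90aa1, Hsp90ab1, Hspb1, Hspb8, Hspd1, Hspe1, Dnaja1, Dnajb1 and Dnajb4) changed in both directions. At W1, 1 rose and 3 fell, at W2, 2 rose and 5 fell, at W6, 2 rose and 5 fell, and at W12, 2 rose and 6 fell. Over all genes, 5.79% rose and 4.10% fell at W1, 9.06% and 6.64% at W2, 18.3% and 14.1% at W6, and 17.9% and 25.1% at W12. The median log2 change of the 14 was -0.12, -0.42, -0.08 and 0.17 in that order, beside 0.09, 0.06, 0.08 and -0.08 over all genes. At W2 the members that fell were Dnajb1, Dnajb4, Hsph1, Hspb8 and Hsp90aa1, and those that rose were Hspa4l and Hspa1a. Genes with the printed heat shock unit pair stood on both sides, Hspb1 among the falls at W6 and Hspd1 among the rises.

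In the ER, Hspa5 (chr2:34771970-34777547, + strand), encoding BiP, the Hsp70 of the ER lumen and sensor partner of the unfolded protein response, had a U-shaped course. Its TPM were 706 and 765 at D0, 356 and 322 at W1, 336 and 278 at W2, 339 and 484 at W6 and 621 and 735 at W12. D0 and W12 overlapped, and all 6 libraries between were lower. It fell at W1 (log2 change -1.12, SE 0.19, adjusted p = 0.00885, range 0.00481 to 0.0874, with 0.0874 without W1 replicate 2) and W2 (log2 change -1.26, SE 0.19, adjusted p = 0.00373). At W6 it was still lower than at D0 (log2 change -0.86, SE 0.19, adjusted p = 0.0115, range 0.00475 to 0.0987, with 0.0532 without D0 replicate 2). From W6 to W12 it rose (log2 change 0.74, SE 0.19, adjusted p = 0.0307, range 0.0115 to 0.154, with 0.0537 to 0.154 without W1 replicate 1, W1 replicate 2, W6 replicate 1, W12 replicate 1 or W12 replicate 2). The W2 fall passed under every alternative, and those at W1 and W6 did not.

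Dnajb9, an ER-lumenal partner of BiP that restrains the sensor IRE1, had W1, W2 and W6 libraries below all of its D0 and W12 libraries, at lower levels than Hspa5. It stood at 15.04 and 14.4 TPM at D0, 6.36 and 4.03 at W1, 9.34 and 7.06 at W2, 7.18 and 6.74 at W6 and 13.8 and 17.3 at W12. It fell at W1 (log2 change -1.37, SE 0.23, adjusted p = 0.00778, range 0.00724 to 0.0823, with 0.0698 without W1 replicate 2) and W6 (log2 change -0.98, SE 0.23, adjusted p = 0.0134, range 0.0116 to 0.083, with 0.0516 without D0 replicate 2). It rose from W6 to W12 (log2 change 1.05, SE 0.23, adjusted p = 0.0163, range 0.00942 to 0.1, with 0.05 to 0.1 without W6 replicate 1, W12 replicate 1 or W12 replicate 2). At W2 its difference missed the threshold (log2 change -0.78, adjusted p = 0.0524, range 0.0462 to 0.31, with 0.0495 without W1 replicate 1 and 0.0487 without W1 replicate 2, and 0.0462 with median-ratio scaling).

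The other 6 genes of an ER list of 8 members fell at no timepoint against D0. The list leaves out ER membrane J-proteins such as Dnajb12 and Dnajc14, which fell at W12. The call for Dnajb12 was lost under several alternatives (log2 change -0.55, adjusted p = 0.0306, range 0.016 to 0.158, with 0.0503 to 0.158 without any one library other than D0 replicate 1, W6 replicate 1 and W6 replicate 2, and 0.0564 with median-ratio scaling and 0.11 with quantile normalization), and the values of Dnajc14 are given with the Dnajc genes. Hsp90b1, the ER Hsp90 known as GRP94, whose promoter held 2 ER stress elements, stood at 233 and 199.9 TPM at D0, 148 and 157 at W1, 189 and 164 at W2, 163 and 229.9 at W6 and 263 and 241 at W12. It passed in no comparison of 2 timepoints, and its adjusted p in the F test was 0.0486. Dnajc3, which damps the kinase PERK and assists BiP, had 20.1 and 21.9 TPM at D0, 15.1 and 15.1 at W2 and 28.5 and 29.5 at W12. It rose at W12 (log2 change 0.45, SE 0.15, adjusted p = 0.037, range 0.00897 to 0.14, with 0.059 to 0.14 without any one library other than W6 replicate 1 and W6 replicate 2). Dnajc10, an ER disulfide reductase, had 18.9 and 19.4 TPM at D0 and 26.1 and 28.7 at W12. It rose as well (log2 change 0.49, SE 0.17, adjusted p = 0.0475, range 0.0107 to 0.192, with 0.0713 to 0.192 without any one library other than W6 replicate 1 and W6 replicate 2). Dnajb11, Dnajc1 and Hspa13 passed in no comparison. Of the 8 genes of the list, 2 fell at W1, 1 at W2 and 2 at W6, 2 rose at W12, and 2 rose from W6 to W12, with medians of -0.10, -0.23, 0.14, 0.14 and 0.26. The medians of all genes in the same order were 0.09, 0.06, 0.08, -0.08 and -0.16. The shares of all genes that moved in the direction counted were 4.10%, 6.64%, 14.1%, 17.9% and 6.66%.

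Of 17 further unfolded protein response genes, 1 fell at W1, 3 fell at W2, 3 fell at W6, and 2 rose and 2 fell at W12. The shares of all genes that fell were 4.10%, 6.64%, 14.1% and 25.1% in time order, and 17.9% rose at W12. Atf4, the transcription factor of the integrated stress response, stood at 427 and 579 TPM at D0 and at 123 to 220.5 later, and fell at W2 by 1.95 on the log2 scale (limma adjusted p = 0.000363). Herpud1, an ER degradation factor, fell at W12 (log2 change -2.20, adjusted p = 0.000842), while Creld2 (log2 change 0.75, adjusted p = 0.0101) and Manf (log2 change 0.52, adjusted p = 0.0146), a pair of secreted ER stress proteins, rose. Ddit3 fell at W6 (log2 change -0.81, limma adjusted p = 0.0266) and rose from W6 to W12 (log2 change 1.30, adjusted p = 0.00692). The sensor genes Atf6, Ern1 and Eif2ak3 passed in no comparison. Hspa5 and Atf4 thus shared the D0 peak but parted at W12, where Atf4 was lower (log2 change -1.24, adjusted p = 0.000898) and Hspa5 overlapped D0.

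In mitochondria, 4 of 8 chaperone genes rose at W6, where 18.3% of all genes rose. Hspd1 (chr1:55077835-55088243, - strand), the matrix Hsp60, had 138 and 88.1 TPM at D0, 118 and 127 at W1, 89.9 and 90.4 at W2, 159 and 179.5 at W6 and 155 and 146 at W12. The W6 libraries were the highest. Hspd1 rose at W6 over D0 (log2 change 0.61, SE 0.20, adjusted p = 0.042, range 0.00188 to 0.208, with 0.0657 to 0.174 without any one library other than D0 replicate 1, and 0.0779 with quantile normalization) and over W2 (log2 change 0.90, SE 0.20, adjusted p = 0.0215, range 0.00284 to 0.131, with 0.0831 to 0.131 without W2 replicate 1, W2 replicate 2 or W6 replicate 2). Hspe1, the Hsp10 lid of that chaperonin, had 153 and 86.9 TPM at D0 and 157 and 236 at W6. Its difference did not pass (log2 change 0.74, adjusted p = 0.065, range 0.0066 to 0.357, with 0.0066 without D0 replicate 1 and 0.0386 without W6 replicate 1).

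Hspa9, the matrix Hsp70 known as mortalin, rose at W6 from 132 and 97.8 to 184 and 169 TPM (log2 change 0.63, SE 0.16, adjusted p = 0.0181, range 0.00262 to 0.147, with 0.0705 without D0 replicate 2 and 0.0645 without W6 replicate 1). Dnajc15 and Dnajc19, J-proteins of the inner membrane import motor, also rose. Dnajc15 had 64.4 and 38.3 TPM at D0, 71.01 and 72.2 at W1, 66.05 and 71.7 at W2, 92.9 and 138 at W6 and 101 and 99.7 at W12. All W6 and W12 libraries were above all earlier ones. It rose at W6 (log2 change 1.17, SE 0.25, adjusted p = 0.00922, range 0.00179 to 0.0938, with 0.0938 in the fit of the 4 libraries compared) and W12 (log2 change 1.000, SE 0.25, adjusted p = 0.0127, range 0.00211 to 0.067, with 0.06 to 0.067 without D0 replicate 2, W12 replicate 1 or W12 replicate 2). Dnajc19 rose from 113 and 78.5 TPM at D0 to 154 and 153 at W6 (log2 change 0.70, SE 0.17, adjusted p = 0.0146, range 0.000943 to 0.136, with 0.136 in the fit of the 4 libraries compared). At W12 it had 139.7 and 142 TPM (log2 change 0.58, SE 0.17, adjusted p = 0.0234, range 0.00117 to 0.107, with 0.0792 to 0.0942 without D0 replicate 2, W12 replicate 1 or W12 replicate 2).

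Dnaja3, the matrix J-protein Tid1, went down instead, from 55.2 and 50.8 TPM at D0 to 33.1 and 31.3 at W2 and 30.7 and 35.7 at W12. The W6 libraries, with 41.7 and 55.2 TPM, overlapped D0. It fell at W2 (log2 change -0.70, SE 0.17, adjusted p = 0.0234, range 0.0102 to 0.156, with 0.0576 to 0.156 without D0 replicate 1, W2 replicate 1 or W2 replicate 2) and at W12 (log2 change -0.66, SE 0.17, adjusted p = 0.0123, range 0.00531 to 0.0834, with 0.0834 without W12 replicate 1). Dnajc11, of the cristae-forming complex, and Dnajc30 were also lower at W12. Dnajc11 stood at 45.98 and 41.1 TPM at D0 and 31.4 and 33.5 at W12, without overlap (log2 change -0.41, SE 0.14, adjusted p = 0.0397, range 0.0364 to 0.158, with 0.0586 to 0.158 without any one library other than D0 replicate 2, W6 replicate 1 and W6 replicate 2, and 0.0681 with median-ratio scaling and 0.113 with quantile normalization). Dnajc30 stood at 17.8 and 19.04 TPM at D0, 24.97 and 20.3 at W6 and 12.2 and 13.7 at W12. It was lower at W12 than at D0 (log2 change -0.48, SE 0.17, adjusted p = 0.0441, range 0.0284 to 0.193, with 0.0601 to 0.193 without any one library other than W6 replicate 1 and W6 replicate 2, and 0.0878 with median-ratio scaling and 0.175 with quantile normalization). Of the 8 mitochondrial members, 0 passed at W1 in limma and 0 had an unadjusted p under 0.05 there, 1 rose and 1 fell at W2, 4 rose at W6, and 2 rose and 3 fell at W12. Median-ratio scaling and quantile normalization each left 1 of those 3 falls, that of Dnaja3, and neither kept the rise at W2, of Dnajc19. Their median log2 change was 0.62 at W6 and 0.43 at W12, beside 0.08 and -0.08 over all genes. Over all genes, 17.9% rose and 25.1% fell at W12.

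**Figure D4:**
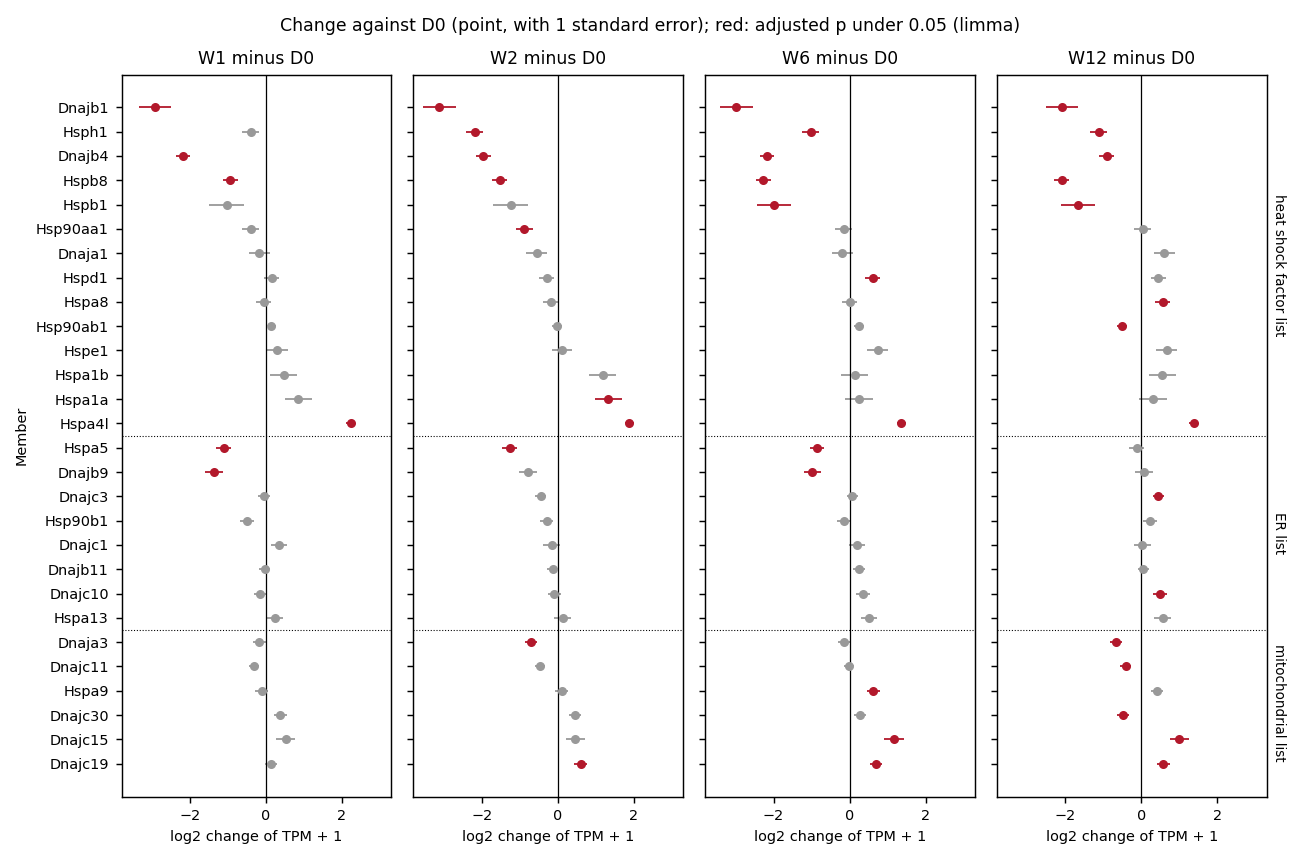
Log2 change of TPM + 1 against D0 (horizontal axis, point with 1 standard error) at W1, W2, W6 and W12 for 28 members of the heat shock factor, ER and mitochondrial lists, with Hspd1 and Hspe1 drawn in the first. Red points passed an adjusted p of 0.05 in limma and grey points did not. Dnajb1, Dnajb4 and Hspb8 are red on the left in all 4 panels, Hspa4l on the right.

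Among the Dnajc genes outside these lists, several rose late. Dnajc2, a J-protein of the ribosome that assists nascent chains, had 27.8 and 18.9 TPM at D0, 26.7 and 29.4 at W1, 28.6 and 28.8 at W2, 47.4 and 54.4 at W6 and 45.8 and 46.5 at W12. The W6 and W12 libraries were above the 6 earlier ones without overlap, and it rose at W6 (log2 change 1.11, SE 0.19, adjusted p = 0.00314, range 0.000757 to 0.0667, with 0.0667 in the fit of the 4 libraries compared) and W12 (log2 change 0.98, SE 0.19, adjusted p = 0.0037). Dnajc9, a histone chaperone, rose at W6 from 69.9 and 42.5 to 83.7 and 119 TPM (log2 change 0.86, SE 0.24, adjusted p = 0.0255, range 0.00362 to 0.156, with 0.133 without D0 replicate 2 and 0.129 without W6 replicate 2). Dnajc8, a splicing-associated J-protein, rose at W6 from 99.2 and 87.7 to 117 and 165 TPM (log2 change 0.57, SE 0.18, adjusted p = 0.0393, range 0.0118 to 0.197, with 0.0545 to 0.176 without any one library other than D0 replicate 1 and W6 replicate 1, and 0.0658 with quantile normalization). Dnajc25 peaked at W1, with 8.88 and 8.03 TPM at D0 and 14.9 and 17.99 at W1 (log2 change 0.88, SE 0.17, adjusted p = 0.0157, range 0.0144 to 0.144, with 0.0565 without D0 replicate 2 and 0.144 without W1 replicate 2).

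Other Dnajc genes fell. Dnajc5, the cysteine string protein of secretory vesicles, stood at 55.9 and 74.04 TPM at D0 and 34.5 and 44.5 at W12. It fell at W12 (log2 change -0.70, SE 0.22, adjusted p = 0.0284, range 0.0175 to 0.173, with 0.157 without D0 replicate 2 and 0.173 without W12 replicate 1, and 0.0647 with median-ratio scaling). Dnajc14, an ER membrane J-protein, stood at 44.01 and 56.6 TPM at D0, 59.6 and 59.5 at W1 and 30.4 and 30.8 at W12 (log2 change -0.69, SE 0.15, adjusted p = 0.00778, range 0.00249 to 0.0511, with 0.0511 in the fit of the 4 libraries compared), with the W12 libraries below all others. Dnajc16 was low, 3.26 and 4.19 TPM at D0 and 1.15 and 1.67 at W12 (log2 change -0.97, SE 0.28, adjusted p = 0.022, range 0.0065 to 0.122, with 0.112 without D0 replicate 2 and 0.122 without W12 replicate 1). Of the 23 Dnajc genes tested, 1 rose at W1, 1 rose at W2, 6 rose and 1 fell at W6, and 7 rose and 5 fell at W12. In contrast, no Dnajb gene of the 10 tested rose against D0 at any timepoint, and 3, 3, 5 and 5 fell in time order. Beside these counts, 5.79%, 9.06%, 18.3% and 17.9% of all genes rose and 4.10%, 6.64%, 14.1% and 25.1% fell. Whether the 2 groups differ was not tested.

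The 13 members below a mean of 1 TPM were Dnajb7, Dnajb8, Dnajb13, Dnajc5b, Dnajc5g, Dnajc6, Dnajc12, Dnajc22, Hspa1l, Hspa12b, Hspb3, Hspb7 and Hspb9, several of them known from testis, muscle or brain. Dnajb8, Dnajc5b and Hspb3 were listed at 0 in all 10 libraries. The highest value among the 13 was 1.84 TPM, of Dnajb13 in D0 replicate 1. Hspa12b, an Hsp70 relative known from endothelium, was at 0 to 0.13 TPM up to W6 and at 0.567 and 0.742 TPM at W12, the timepoint at which the endothelial markers stood at 34.1 and 78.5 TPM.

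Of 26 co-chaperones and related heat shock genes outside the symbol rule, 1 rose at W1, 2 rose and 2 fell at W2, 7 rose and 3 fell at W6, and 3 rose and 6 fell at W12. The shares of all genes called in either direction were 9.89%, 15.7%, 32.4% and 43.0%. Cryab, a small heat shock gene of the same family as Hspb1 under another symbol, had the largest change of these at W2. It stood at 3.31 and 2.86 TPM at D0, 33.9 and 45.8 at W1, 71.7 and 74.2 at W2, 61.9 and 29.8 at W6 and 12.6 and 11.5 at W12. It rose at W2 (log2 change 4.18, SE 0.30, adjusted p = 0.000119). Fkbp5, an Hsp90 co-chaperone induced by glucocorticoids, also rose at W2 (log2 change 2.07, adjusted p = 0.0369). Serpinh1, the collagen chaperone of the ER, fell (log2 change -0.88, adjusted p = 0.00788).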

How the data were processed

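RNA of sorted EpdSCs was measured at D0, W1, W2, W6 and W12 with 2 libraries each, prepared with a low-input full-length kit. The authors trimmed the reads with Skewer, quantified them with Salmon 1.4.0 on the GRCm38 transcriptome with the transgene added, and summed transcripts to genes with Tximport 1.12.3. The deposited values are TPM, which sum to 1000000 in each library and keep no depth, so read counts are unknown and no count model could be run. A deposited table of hair follicle placode libraries holds the mean of normalized counts, log2 fold changes, standard errors, statistics and p-values of the authors' own comparison and was not used.

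From the TPM, log2(TPM + 1) was fitted for the 13110 genes whose mean reached 1 TPM with limma 3.58.1 in R 4.3.3, with 1 mean per timepoint, all 10 libraries, 5 residual degrees of freedom and a variance trend. For low genes the pseudocount makes a change look smaller than it is. Benjamini-Hochberg adjustment ran over all tested genes and the threshold was an adjusted p of 0.05, two-sided. The scripts were tested on simulated data. The study's own counts test could not be repeated on TPM.

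The members and gene lists were chosen with earlier results of these data known. Members were named by rule as the 10 highest in mean TPM, the 5 largest rises and falls past the threshold in each comparison, and the members of the heat shock factor, ER and mitochondrial lists. Dnaja2, Dnajb6, Dnajc5, Dnajc8, Dnajc14, Dnajc16, Hsf1, Hspa14, Hspb11, the members below 1 TPM the sensor genes Atf6, Ern1 and Eif2ak3, and Manf, Cct4, Ier3, Ptprc and Myh11 were added after their values were seen, and so was the search for 3 adjoining heat shock units. From each other list up to 4 genes with large changes past the threshold were named. These were not always the largest changes of the list over all comparisons. All 73 members were placed by GENCODE M21 (GRCm38), and promoters came from RefSeq (GRCm38.p6). Dnajc2, Dnajc5, Dnajc5b, Dnajc11, Dnajc12, Dnajc18, Dnajc22, Dnajc30, Hsf1, Hsp90aa1, Hsp90ab1, Hspa8, Hspa9, Hspa13 and Hspb2 had no matching promoter entry. Proteins were not analysed here.

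Each call was recomputed with a pseudocount of 0.1, without the filter on low genes, with a minimum mean of 5 TPM, with median-ratio scaling, with quantile normalization, without the variance trend, on the 4 libraries of a comparison alone, with the replicate number as a block, with Hspa1a and Hspa1b summed, and without each library in turn. A comparison that leaves 1 library at a timepoint assumes that it varies as the other timepoints do. With 2 libraries a timepoint an exact permutation test of 2 timepoints cannot reach the threshold. No permutation test was run, for these or for the F test, and p-values measure the spread between these libraries.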

Additional observations from a re-analysis of the deposited data

How the results depend on the processing

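The results checked were the calls of members and several named differences that did not pass. Other changes of members were not checked for a reversal. None of the results checked reversed its direction under any alternative tried. With a pseudocount of 0.1, 100 of 104 such results kept their side of the threshold, with median-ratio scaling 95, with quantile normalization 90 and without the variance trend 92, and with a minimum mean of 5 TPM 93 of 94. The replicate block kept 88, all genes above 0 TPM kept 65, leaving out 1 library kept 68 to 90, lowest without D0 replicate 2 and without W12 replicate 1, and the fit of the 4 libraries of a comparison alone kept 46. That fit, which has 2 residual degrees of freedom, called 5, 8, 4 and 14 members against D0 in time order, 4 between W2 and W6 and 3 between W6 and W12. With all genes above 0 TPM, 7 members were called at W2, 2 between W2 and W6 and 23 by the F test, in fits that tested more genes. Leaving out 1 library gave 4 to 11 members for W1, 7 to 20 for W2, 11 to 26 for W6 and 11 to 30 for W12 against D0, 0 to 22 between W2 and W6, 1 to 11 between W6 and W12 and 21 to 42 by the F test. The lowest counts came without W1 replicate 2 at W1, W2 replicate 2 at W2, D0 replicate 2 at W6, W12 replicate 1 at W12 and between W6 and W12, and either W2 library between W2 and W6. Without D0 replicate 2, 7, 9, 11 and 16 members were called against D0 in time order, and the cause was not tested. The correlation of same-numbered deviations from the timepoint means was -0.129 to 0.093. Values of this size cannot settle whether the replicate numbers pair the libraries. With the replicate number as a block, 9, 12, 20 and 21 members were called against D0 in time order, 8 between W2 and W6, 7 between W6 and W12 and 29 by the F test. With the numbers crossed, chosen after the data were seen, 9 were called at W1, 23 at W6 and 7 between W6 and W12. Depth is unknown, and 2 libraries a timepoint, the change of host at W12 and the rise of age with time limit every comparison. The Xist values of D0 replicate 2 and of both W12 libraries do not match their male label. The part of sex in the comparisons with D0 or W12 was not tested.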

Other observations

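The cytosolic chaperonin TRiC, a ring of 8 subunits that folds actin and tubulin, moved late. Of its 8 genes, 0 passed in limma at W1 or W2 (0 at an unadjusted p under 0.05), 7 rose at W6 and 6 rose at W12, with median log2 changes of 0.65 and 0.55 beside 0.08 and -0.08 over all genes. Of all genes, 18.3% rose at W6 and 17.9% at W12. Cct6a stood at 279.8 and 213 TPM at D0, 253 and 249.7 at W1, 263 and 240.00 at W2, 438 and 466 at W6 and 408 and 429.8 at W12, so that the W6 and W12 libraries were above all others (log2 change 0.88, adjusted p = 0.00351 at W6). Cct3 (log2 change 0.74, adjusted p = 0.0111), Cct5 (log2 change 0.70, adjusted p = 0.0148) and Cct2 (log2 change 0.67, adjusted p = 0.00869) also rose at W6. Cct4 stood between 160.4 and 231 TPM and passed at neither timepoint. Like Hspd1, Hspa9 and Dnajc2 among the members, these genes were highest at W6 or W12.

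Among the co-chaperones, Bag2, which releases clients from Hsp70, rose at W6 (log2 change 2.35, adjusted p = 0.00196), from 3.27 and 1.81 TPM at D0 to 24.3 and 11.3 at W6. Cryab also rose at W1 (log2 change 3.31, adjusted p = 0.000491), W6 (log2 change 3.43, adjusted p = 0.000156) and W12 (log2 change 1.67, adjusted p = 0.00288). Serpinh1 fell at W6 (log2 change -2.06, adjusted p = 9.27e-05).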
